A study of Mus musculus with 24 samples.

Results

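The genes described here are 36 genes whose transcripts come mainly from macrophages and other leukocytes, chosen by their symbols from a list of 37 names among the 33079 genes of the deposited table. The remaining name, Emr1, is an older symbol of Adgre1, which is in the table. They were followed in mouse embryonic stem (ES) cells that had been differentiated as embryoid bodies, aggregates in which many cell types arise side by side, for 28 days. WT cells are the control line with a Per2::Luciferase knock-in, a reporter of the clock protein PER2, and KO cells are Rev-erba/Rev-erbb deficient cells of the same knock-in background. Both genotypes received 100 nM dexamethasone, a glucocorticoid used to synchronize the clocks of cells in culture, and sampling ran in steps of 4 h between 12 and 56 h after it, which gave 12 WT and 12 KO libraries, 1 for each genotype and hour. Each library holds the pooled RNA of 3 embryoid bodies. The ES cells had been kept on feeder cells of embryonic fibroblasts. The KO cells come from a picked colony in which Rev-erbβ was disrupted first and Rev-erbα afterwards, so the genotype and the history of the line cannot be told apart. No group without dexamethasone was analysed here.

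Macrophages arise early in the embryo from yolk sac progenitors and settle in nearly every organ, where they take up dead cells, microbes and iron-bearing haemoglobin. The transcription factor PU.1, encoded by Spi1, commits progenitors to the lineage, and the receptor CSF1R, which binds the growth factors CSF1 and IL-34, keeps the cells alive. REV-ERBα and REV-ERBβ are nuclear receptors that repress transcription at sites they share with the ROR proteins, in the clock of most cells and also in macrophages.

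The libraries had between 6426254 and 10287969 exon fragments in WT and between 6183500.5 and 9868080 in KO, 44.7% to 46.0% of the library totals in the header of the table. Expression is given as RPKM, the fragments on the exons of a gene divided by the length of those exons and by the library total, so that levels can be compared between genes. The targeted genes do not check the labels, because the values cover whole genes of which only an exon was deleted. Nr1d1, which encodes REV-ERBα, lay between 3.58 and 7.48 RPKM in WT and between 2.48 and 9.74 RPKM in KO, and Nr1d2, which encodes REV-ERBβ, between 0.895 and 3.02 RPKM in WT and between 1.38 and 5.27 RPKM in KO.

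RefSeq promoters (GRCm38.p6, 250 bases before to 50 after the start site) were found for 25 of the 36 genes, 30 promoters in all, and were searched on both strands for GAGGAAGT, an ETS site of the kind PU.1 binds, and for TAGGTCA, a core site of REV-ERB and ROR proteins. The 2 motifs do not overlap in their letters. GAGGAAGT was found in 3 of the 30 promoters, those of Ctss, Cd53 and C1qc, and in 3.20% of all 32851 promoters. TAGGTCA was found in 2 of the 30, those of C1qc and Ccl3, and in 2.61% of all promoters. The 250 bases before the start site are shown for C1qc, a complement gene among the most abundant leukocyte transcripts here and the only one of these genes whose promoter held both motifs, and for Cd163 and Mrc1, the scavenger receptor genes whose levels in KO cells are described below. Capitals mark matches, which in C1qc lie on the opposite strand, at 195 and 174 bases before the start site, and the promoters of Cd163 and Mrc1 held neither motif.
C1qc (chr4:136892915-136893164, minus strand): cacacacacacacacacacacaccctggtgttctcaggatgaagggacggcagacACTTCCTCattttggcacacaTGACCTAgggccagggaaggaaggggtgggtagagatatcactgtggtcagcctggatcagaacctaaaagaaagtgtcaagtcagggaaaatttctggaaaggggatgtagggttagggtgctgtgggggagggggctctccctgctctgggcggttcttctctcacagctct
Cd163 (chr6:124304401-124304650, plus strand): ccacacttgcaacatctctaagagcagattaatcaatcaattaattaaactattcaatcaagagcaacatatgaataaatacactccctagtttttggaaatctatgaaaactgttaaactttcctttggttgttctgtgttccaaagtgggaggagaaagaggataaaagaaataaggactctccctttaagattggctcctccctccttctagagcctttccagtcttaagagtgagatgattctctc
Mrc1 (chr2:14229164-14229413, plus strand): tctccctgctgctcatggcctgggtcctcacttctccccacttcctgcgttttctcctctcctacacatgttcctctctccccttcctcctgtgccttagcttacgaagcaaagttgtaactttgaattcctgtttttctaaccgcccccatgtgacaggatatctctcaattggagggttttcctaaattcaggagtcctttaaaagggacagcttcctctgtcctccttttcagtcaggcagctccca

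How much leukocyte RNA the cultures held was read from the levels of the members. Transcripts of the 36 genes made up 0.309% to 0.367% of the exon fragments in the WT libraries (median 0.329%) and 0.349% to 0.401% in the KO libraries (median 0.373%). Their summed level was 899 to 1177 RPKM in WT and 1018 to 1265 RPKM in KO, and without Lyz2, the largest single contributor, 607 to 730 RPKM in WT and 650 to 793 RPKM in KO. The ranges of the genotypes overlapped in each of these sums. In bulk RNA, more cells of a type and more RNA per cell cannot be told apart.

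The most abundant members were the products that macrophages secrete or keep in lysosomes. Lyz2 (chromosome 10, 117277541 to 117282272), which encodes the lysozyme of macrophages and neutrophils, was at 341 ± 71.9 in WT and 421 ± 81.2 RPKM in KO (± SD over the 12 hours, as in all levels below), above 99.8% of the expressed genes. The 3 chains of complement C1q, which lie side by side on chromosome 4, followed: C1qb was at 112 ± 8.57 in WT and 120 ± 8.16 RPKM in KO, C1qa at 89.8 ± 5.50 and 102 ± 7.13 RPKM, and C1qc at 80.3 ± 7.52 and 89.5 ± 10.5 RPKM, in the same order. Csf1r (chromosome 18, 61105572 to 61131139), the receptor for CSF1, was at 40.5 ± 2.81 in WT and 40.4 ± 1.89 RPKM in KO and thus above 95.3% of the expressed genes. Spi1 was at 9.83 ± 0.910 and 10.4 ± 0.974 RPKM. The level of the pan-leukocyte phosphatase gene Ptprc (CD45) was far lower, at 1.99 ± 0.206 in WT and 1.94 ± 0.175 RPKM in KO. In all, 15 members were above 10 RPKM in both genotypes and 5 (Ccl4, Cd163, Ccr2, Mcpt4 and Cpa3) were under 1 RPKM in both.

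**Figure D1:**
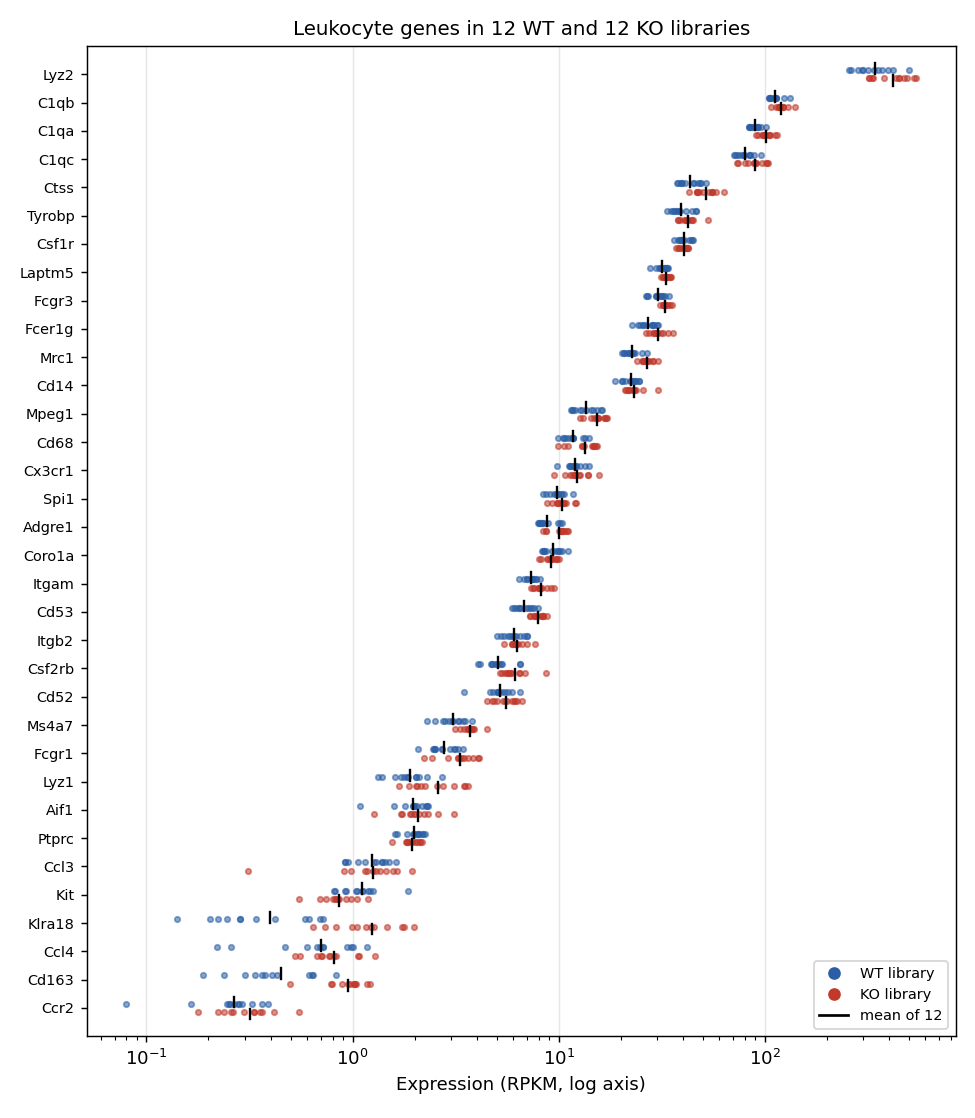
Levels of the 34 leukocyte genes that passed the filter on low values, on a logarithmic RPKM axis, with 1 point for each WT (blue) and KO (red) library and a black tick at the mean of the 12 libraries of a genotype. Lyz2 lies highest, the 3 C1q genes follow, the points of Csf1r coincide between the genotypes, and those of Klra18 and Cd163 lie further to the right in KO.

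Many genes that define other leukocytes were near or at 0. The mast cell protease genes Mcpt4 and Cpa3 stayed under the filter: Mcpt4 was at 0 in 10 WT and 7 KO libraries and reached 0.0252 in WT and 0.0934 RPKM in KO, and Cpa3 was at 0 in 9 WT and 10 KO libraries and reached 0.0401 and 0.0254 RPKM. Among 15 further mast cell and basophil genes, 6 had a mean under 0.1 RPKM (Fcer1a, Mcpt1, Mcpt8, Tpsab1, Tpsb2 and Mrgprb2), and Fcer1a was listed at 0 in all 24 libraries. Of 18 T and NK cell genes none passed the filter, 17 had a mean under 0.1 RPKM, and their summed level was 0.216 to 0.479 RPKM in WT and 0.274 to 0.677 RPKM in KO. The remaining gene of that list was Lck, at 0.186 ± 0.0491 in WT and 0.209 ± 0.0530 RPKM in KO. Of 9 B cell genes 8 had a mean under 0.1 RPKM, the exception being Blnk at 0.646 ± 0.0784 and 0.641 ± 0.0879 RPKM. Blnk rested on a mean of 23.2 fragments per library and Lck on 7.08. The neutrophil and basophil lists were not uniformly low: the neutrophil genes Ltf (7.64 ± 2.03 in WT and 11.6 ± 4.20 RPKM in KO), S100a9 (5.13 ± 3.04 and 5.09 ± 1.90 RPKM) and S100a8 (2.58 ± 0.695 and 2.92 ± 1.003 RPKM) were detected, and so was Ms4a2, the Fc receptor β chain of mast cells and basophils (0.761 ± 0.178 and 0.988 ± 0.338 RPKM).

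The next question was whether the leukocyte genes differ between KO and WT cells. KO cells had slightly higher levels of many macrophage genes, while Csf1r, Ptprc and Spi1 did not pass the test. Among 34 members tested, 15 were higher in KO, where 11.5% of all 15112 tested genes were, and 1, Kit, was lower, where 14.7% of all genes were. The largest differences were those of the scavenger receptor gene Cd163 and of Klra18, which encodes an NK cell receptor of the Ly49 family. Klra18 passed the filter on low values, a mean above 0.5 RPM in 1 genotype, only through KO (0.488 in WT and 1.52 in KO), the genotype in which it is high, so its place among the 15 is not independent of the filter. The differences of the other 13 genes higher in KO lay between 0.13 and 0.41 on the log2(RPKM + 0.1) scale. Over the 34 members the median log2 difference was 0.16, against -0.01 over all tested genes, and 29 of the 34 estimates were above 0. The members were chosen with earlier results of these data known, so these counts are not independent of the data. Tests were made with limma and Benjamini-Hochberg adjustment over all tested genes. Since each hour has a single library per genotype, the time points stand in for replicates, and the p-values measure the spread between these libraries, which includes change over time.

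The ranges of the genotypes overlapped for all 34 members, where 0.609% of all tested genes did not overlap. Klra18 came closest, with 11 of 12 KO libraries above every WT library, followed by Cd163 with 9. For 6 members (Klra18, Cd163, Lyz2, Ctss, Itgam and Cd53) the KO library was the higher one at all 12 hours. How many of all tested genes had this pattern was not counted, so it does not set these members apart.

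**Figure D2:**
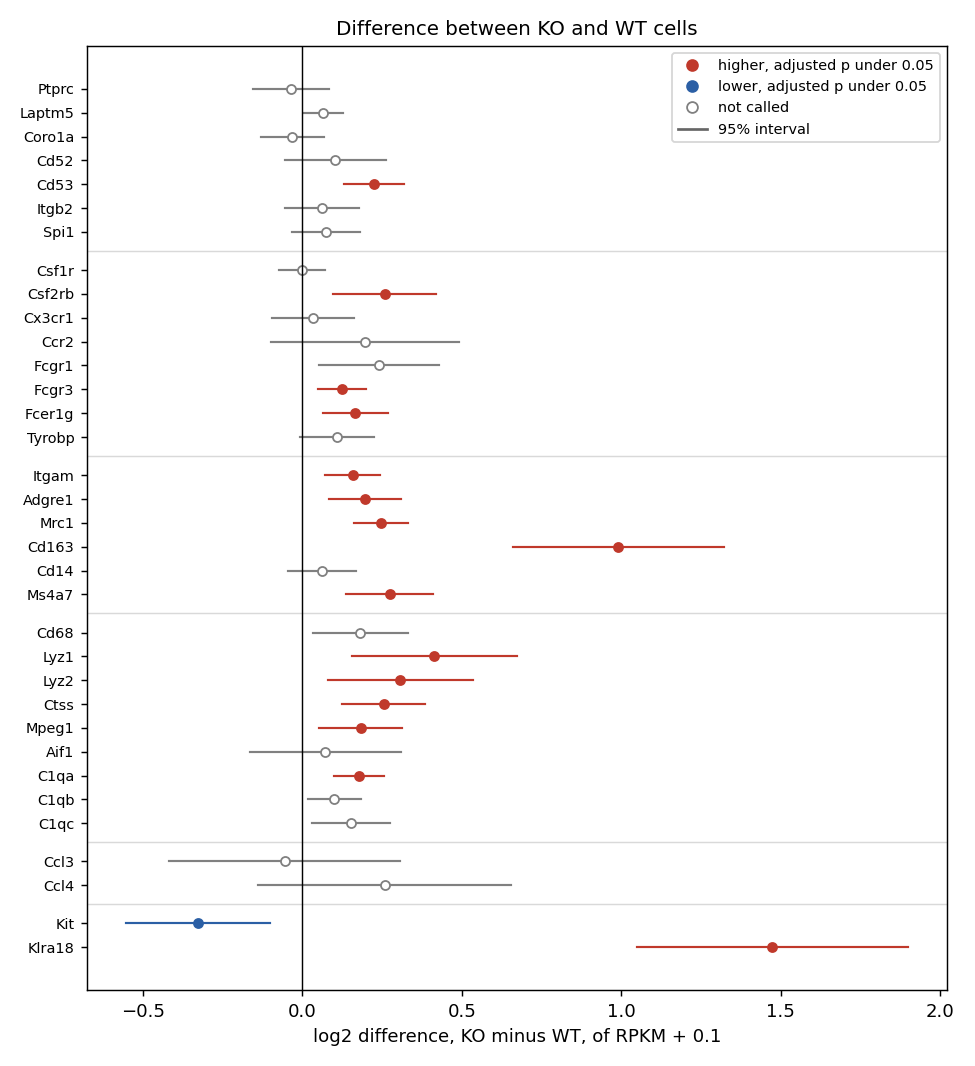
Difference between KO and WT cells for the 34 leukocyte genes tested, as log2 of RPKM + 0.1 with 95% intervals from limma, grouped by role with grey lines between the groups (pan-leukocyte genes, receptors, phagocyte surface molecules, lysosome and complement genes, chemokines, and Kit with Klra18). Filled points passed an adjusted p of 0.05, 15 to the right of 0 and only Kit to the left, and Cd163 and Klra18 stand furthest to the right at 0.99 and 1.47.

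Among the 7 pan-leukocyte genes, only Cd53 passed the test. Cd53 (chromosome 3, 106758861 to 106790149), a tetraspanin of leukocyte membranes, ranged from 5.95 to 7.96 RPKM in WT (median 6.76) and from 7.26 to 8.77 RPKM in KO (median 7.95), a log2 difference of 0.23 ± 0.05 (SE, limma adjusted p = 7.09e-04). Laptm5, a lysosomal membrane protein of blood cells and the most abundant gene of this group, ranged from 27.6 to 33.8 RPKM in WT (median 32.5) and from 31.2 to 35.2 RPKM in KO (median 33.2), and did not pass (log2 difference 0.07 ± 0.03, limma adjusted p = 0.107). Ptprc was at nearly the same level in both genotypes, with a difference of -0.03 (95% interval -0.15 to 0.08). For Coro1a, an actin regulator, it was -0.03 (-0.13 to 0.07), for Spi1 0.08 (-0.03 to 0.18), for the integrin β2 gene Itgb2 0.06 (-0.05 to 0.18) and for Cd52, a small surface glycoprotein, 0.10 (-0.05 to 0.26).

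The receptors were split. Csf1r did not differ detectably, with a log2 difference of -0.00 and a 95% interval from -0.07 to 0.07, and its libraries ranged from 36.3 to 44.9 RPKM in WT (median 39.4) and from 37.2 to 42.5 RPKM in KO (median 41.1). Csf2rb, the signalling chain shared by the receptors for GM-CSF, IL-3 and IL-5, ranged from 4.08 to 6.52 RPKM in WT (median 4.97) and from 5.20 to 8.68 RPKM in KO (median 5.80), a log2 difference of 0.26 ± 0.08 (limma adjusted p = 0.0166). Fcgr3, an activating receptor for IgG, ranged from 26.5 to 34.2 RPKM in WT (median 30.4) and from 30.9 to 35.6 RPKM in KO (median 32.5; log2 difference 0.13 ± 0.04, limma adjusted p = 0.0138). Its signalling partner Fcer1g, the Fc receptor γ chain, ranged from 22.7 to 30.3 RPKM in WT (median 27.4) and from 26.5 to 35.9 RPKM in KO (median 29.9; log2 difference 0.17 ± 0.05, limma adjusted p = 0.0157). These 3 were the receptor genes that passed, and each had WT and KO libraries at the same levels.

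The other 5 receptor genes did not pass. Fcgr1, the high-affinity IgG receptor, was just outside the threshold (0.24 ± 0.09, limma adjusted p = 0.0546) and passed without any 1 of 6 libraries (WT at 40, 48 or 56 h, KO at 12, 16 or 20 h, adjusted p from 0.0126 to 0.0482). Fcgr1 also passed with quantile normalization, with the hour as a replicate block, and with hours and 24 h terms as covariates. The adaptor gene Tyrobp had a difference of 0.11 (95% interval -0.01 to 0.23), the fractalkine receptor gene Cx3cr1 of 0.03 (-0.10 to 0.16) and the monocyte chemokine receptor gene Ccr2 of 0.20 (-0.10 to 0.49). Reads of Csf2rb may be shared with its near copy Csf2rb2, and those of Fcgr3 with Fcgr2b, so their values are uncertain.

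Of the 6 phagocyte surface molecules tested, 5 were higher in KO. Cd163 (chromosome 6, 124304651 to 124330527), the receptor with which macrophages take up haemoglobin bound to haptoglobin, ranged from 0.188 to 0.833 RPKM in WT (median 0.393) and from 0.498 to 1.21 RPKM in KO (median 0.990). The mean in KO was 2.12 times that in WT, and the log2 difference was 0.99 ± 0.16 (limma adjusted p = 8.91e-05). WT libraries held a mean of only 35.6 fragments of Cd163 and KO libraries 74.8, and 9 of 12 KO libraries lay above the highest WT library, that of 40 h. Mrc1 (chromosome 2, 14229414 to 14332023), the mannose receptor CD206, was far more abundant and differed less: it ranged from 20.3 to 26.7 RPKM in WT (median 22.3) and from 24.0 to 30.2 RPKM in KO (median 26.5), a log2 difference of 0.25 ± 0.04 (limma adjusted p = 1.28e-04). At 11 of 12 hours the KO library had the higher Mrc1 level.

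Smaller differences were seen for the other 3 genes. Ms4a7, a membrane protein of tissue macrophages, ranged from 2.30 to 3.79 RPKM in WT (median 3.05) and from 3.14 to 4.50 RPKM in KO (median 3.69; log2 difference 0.27 ± 0.07, limma adjusted p = 0.00354). Itgam, the integrin CD11b, ranged from 6.40 to 8.07 RPKM in WT (median 7.45) and from 7.33 to 9.49 RPKM in KO (median 8.06; 0.16 ± 0.04, limma adjusted p = 0.00626). Adgre1, the F4/80 antigen, ranged from 7.96 to 10.4 RPKM in WT (median 8.30) and from 8.37 to 11.1 RPKM in KO (median 10.2; 0.20 ± 0.05, limma adjusted p = 0.00933). The endotoxin co-receptor gene Cd14 did not pass, with a difference of 0.06 (95% interval -0.05 to 0.17) at 22.3 ± 1.86 in WT and 23.3 ± 2.51 RPKM in KO.

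Of the 9 lysosome, killing and complement genes, 5 were higher in KO. Ctss (chromosome 3, 95526786 to 95556405), the protease cathepsin S, ranged from 37.5 to 51.7 RPKM in WT (median 42.8) and from 42.9 to 63.4 RPKM in KO (median 51.6), a log2 difference of 0.26 ± 0.06 (limma adjusted p = 0.00430), and 6 KO libraries lay above every WT library. C1qa ranged from 83.5 to 101 RPKM in WT (median 89.8) and from 90.4 to 115 RPKM in KO (median 100.0; 0.18 ± 0.04, limma adjusted p = 0.00136). The other C1q chains had estimates in the same direction that did not pass, 0.10 ± 0.04 for C1qb (limma adjusted p = 0.0700) and 0.15 ± 0.06 for C1qc (limma adjusted p = 0.0599). C1qb passed without any 1 of 3 libraries (WT at 20 or 40 h, KO at 16 h, adjusted p from 0.0148 to 0.0365), and C1qc without any 1 of 5 (WT at 40 or 44 h, KO at 12, 16 or 20 h, 0.0251 to 0.0493). C1qc, but not C1qb, also passed with the hour as a replicate block and with hours and 24 h terms as covariates.

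Lysozyme transcripts were higher in KO with wide spread. Lyz2 ranged from 255 to 500 RPKM in WT (median 328) and from 320 to 541 RPKM in KO (median 440; log2 difference 0.31 ± 0.11, limma adjusted p = 0.0417). This call did not hold without any 1 of 14 libraries (WT at 24, 32, 36, 44, 48, 52 or 56 h, KO at 12, 16, 20, 24, 28, 36 or 40 h), with adjusted p from 0.0542 to 0.0728. Its neighbour Lyz1 (chromosome 10, 117287795 to 117292868), the lysozyme of Paneth cells, ranged from 1.33 to 2.70 RPKM in WT (median 1.85) and from 1.67 to 3.63 RPKM in KO (median 2.40; 0.41 ± 0.13, limma adjusted p = 0.0164). Lyz1 was 0.440% to 0.779% of Lyz2 in WT and 0.503% to 0.814% in KO, and because the copies are nearly identical, reads of Lyz2 assigned to Lyz1 cannot be told apart from Lyz1 transcripts.

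Mpeg1, the pore-forming perforin-2, ranged from 11.4 to 16.2 RPKM in WT (median 13.3) and from 12.6 to 17.1 RPKM in KO (median 15.5; 0.18 ± 0.06, limma adjusted p = 0.0324). It did not pass without any 1 of 8 libraries (WT at 12, 16, 20, 24 or 36 h, KO at 28, 48 or 56 h, 0.0517 to 0.0597). Cd68, a glycoprotein of lysosomal membranes, did not pass at 0.18 ± 0.07 (limma adjusted p = 0.0612) but did without any 1 of 6 libraries (WT at 40, 48 or 56 h, KO at 12, 16 or 32 h, 0.0162 to 0.0475). Cd68 also passed with the hour as a replicate block and with hours and 24 h terms as covariates. The actin-binding protein gene Aif1 (IBA1) had a difference of 0.07 (95% interval -0.16 to 0.31). Neither chemokine gene passed: Ccl3 had a difference of -0.05 (-0.42 to 0.31) at 1.24 ± 0.239 in WT and 1.25 ± 0.416 RPKM in KO, and Ccl4 of 0.26 (-0.14 to 0.66) at 0.704 ± 0.292 and 0.815 ± 0.224 RPKM.

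Kit and Klra18, which are not macrophage genes, moved in opposite directions. Klra18 (chromosome 6, 130043745 to 130067271) ranged from 0.141 to 0.719 RPKM in WT (median 0.312) and from 0.642 to 1.99 RPKM in KO (median 1.19), a log2 difference of 1.47 ± 0.21 (limma adjusted p = 1.61e-05) and a ratio of means of 3.12. It rested on a mean of 8.75 fragments per WT library and 26.9 per KO library, and the Ly49 genes are near copies of each other, so the source of these reads is uncertain. The NK cell receptor gene Ncr1 was listed at 0 in all libraries. Kit (chromosome 5, 75574987 to 75656721), the receptor for stem cell factor on blood progenitors, mast cells, germ cells and melanocytes, ranged from 0.811 to 1.87 RPKM in WT (median 1.08) and from 0.552 to 1.19 RPKM in KO (median 0.843; log2 difference -0.33 ± 0.11, limma adjusted p = 0.0288). Without the KO library of 28 h, which had the lowest Kit level, the adjusted p was 0.0512.

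Over the hours after dexamethasone, 10 of 34 members changed. In a fit with 1 slope for both genotypes, 8 rose (4.85% of all tested genes did) and 2 fell (6.04% of all tested genes did). Of these 10, 7 had also differed between the genotypes, as had 16 of all 34 members. The share of all tested genes called in both tests was not counted. These counts, too, come from a list chosen with earlier results known. The rising genes were those of lysosomes and phagocytosis (Mpeg1, Cd68, Ctss, C1qc), the receptor genes Fcgr1, Adgre1 and Cd163, and Klra18, while Lyz2 and Csf2rb fell. Csf1r had a slope of -0.03 (95% interval -0.09 to 0.03) and Ptprc of -0.04 (-0.15 to 0.06), in log2 units per 24 h.

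**Figure D3:**
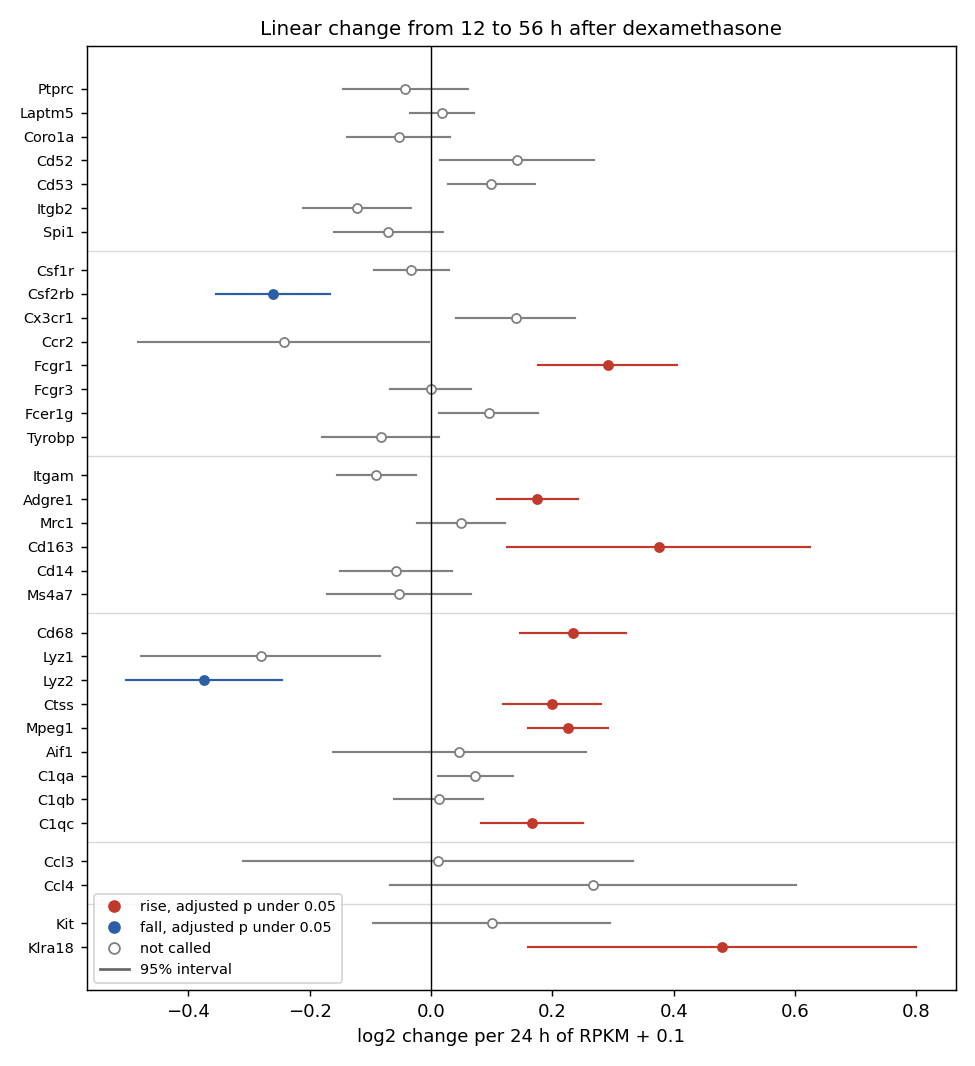
Linear change of the 34 leukocyte genes from 12 to 56 h after dexamethasone, as log2 of RPKM + 0.1 per 24 h with 95% intervals, from a fit with 1 slope for both genotypes and the same order of genes and groups as in the plot of KO minus WT. The 8 filled points to the right rose and the 2 to the left (Lyz2 at -0.37, Csf2rb at -0.26) fell with an adjusted p under 0.05.

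Mpeg1 had the smallest p, with a slope of 0.23 ± 0.03 log2 units per 24 h (limma adjusted p = 3.21e-05). The mean of its last 3 hours was 1.36 times that of the first 3 in WT and 1.23 times in KO. Cd68 rose by 0.23 ± 0.04 (limma adjusted p = 6.12e-04), from a lowest value of 9.92 RPKM at 12 h to a highest of 14.0 RPKM at 48 h in WT (median 11.6), and from 9.97 RPKM at 16 h to 15.4 RPKM at 52 h in KO (median 13.9). Slopes of 0.20 ± 0.04 were found for Ctss (limma adjusted p = 0.00128) and of 0.18 ± 0.03 for Adgre1 (limma adjusted p = 7.96e-04). In these 4 genes the lowest value of each genotype lay between 12 and 24 h and the highest at 36 h or later, except that Mpeg1 in KO was highest at 28 h.

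Fcgr1 rose by 0.29 ± 0.06 log2 units per 24 h (limma adjusted p = 0.00109). Its values ran from 2.07 to 3.44 RPKM in WT (median 2.72) and from 2.22 to 4.09 RPKM in KO (median 3.36), with the lowest value of each genotype at 12 h. C1qc rose by 0.17 ± 0.04 (limma adjusted p = 0.00823), from 70.5 RPKM at 16 h to 95.9 RPKM at 40 h in WT (median 79.1) and from 73.6 to 104 RPKM at the same hours in KO (median 89.6). The other C1q chains, whose products join C1qc in 1 protein, had slopes of 0.07 (95% interval 0.01 to 0.14, limma adjusted p = 0.124) for C1qa and 0.01 (-0.06 to 0.09) for C1qb. Differences between the slopes of the 3 chains were not tested.

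The slopes of Cd163 and Klra18 were the steepest and the least stable. Cd163 had 0.38 ± 0.12 log2 units per 24 h (limma adjusted p = 0.0459). The mean of its last 3 hours was 2.07 times that of the first 3 in WT and 1.09 times in KO. Its call did not hold without any 1 of 16 libraries (WT at 12, 16, 20, 24, 32, 36, 48, 52 or 56 h, KO at 16, 24, 40, 44, 48, 52 or 56 h, adjusted p from 0.0502 to 0.108). Klra18 had 0.48 ± 0.16 (limma adjusted p = 0.0463), which did not hold without any 1 of 17 libraries (WT at 12, 20, 24, 28, 40, 48, 52 or 56 h, KO at 16, 24, 28, 32, 36, 40, 44, 48 or 56 h, 0.0513 to 0.121).

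Lyz2 fell by 0.37 ± 0.06 log2 units per 24 h (limma adjusted p = 2.56e-04), against the direction of the other called lysosomal genes. Its last 3 hours had 0.628 times the level of the first 3 in WT and 0.657 times in KO, and the highest value of each genotype was at 20 h. Csf2rb fell by 0.26 ± 0.05 (limma adjusted p = 4.32e-04), with last-to-first ratios of 0.782 in WT and 0.738 in KO. Lyz1 had a slope of -0.28 ± 0.10 that did not pass (limma adjusted p = 0.0588) but did without any 1 of 4 libraries (WT at 24, 32 or 56 h, KO at 36 h, 0.0272 to 0.0479). Cd53 likewise passed, as a rise, without any 1 of 5 libraries (WT at 36 h, KO at 12, 32, 44 or 52 h, 0.0263 to 0.0499), and Cx3cr1 without any 1 of 3 (WT at 56 h, KO at 28 or 32 h, 0.0186 to 0.0394). Without the KO library of 32 h, 4 members fell rather than 2, with Itgam and Itgb2 (adjusted p = 0.0499) added. Itgam also passed without the WT library of 52 h, with adjusted p of 0.0472 and 0.0481 in these fits.

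**Figure D4:**
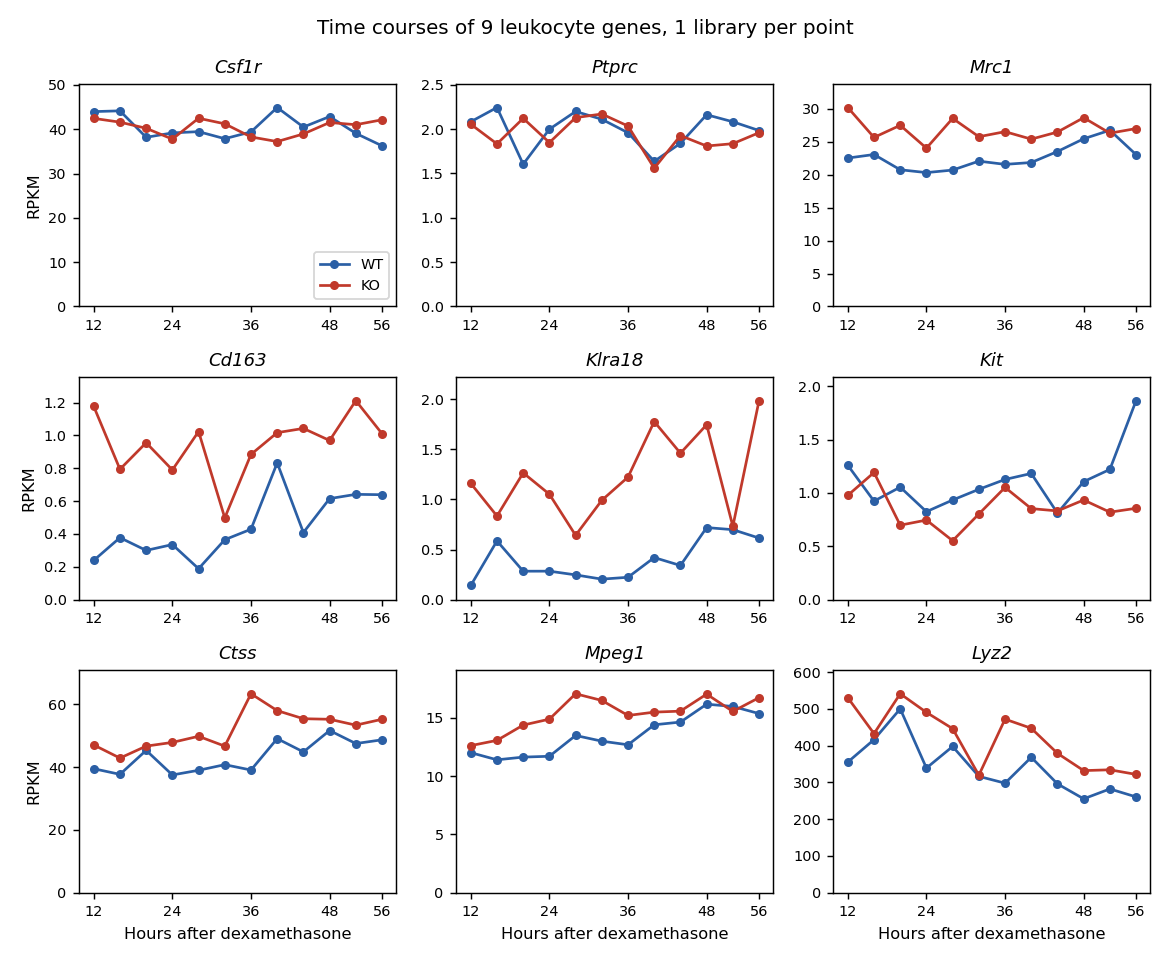
Time courses of 9 leukocyte genes in WT (blue) and KO (red) cells, with RPKM from 0 against hours after dexamethasone and 1 library per point, so no error bars are drawn. Csf1r and Ptprc run level and together, Cd163 and Klra18 lie higher in KO at all 12 hours, Ctss and Mpeg1 climb, and Lyz2 declines from a high point at 20 h in both genotypes.

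No member passed the test for a different slope in KO and WT (0 of 34, and 0.0% of all tested genes). Without adjustment 2 members and 1143 of 15112 genes had p under 0.05. The 2 were Cd163, with a slope in KO lower by 0.52 ± 0.22 log2 units per 24 h (limma p = 0.0273, adjusted p = 0.623), and Cd53 (-0.14 ± 0.06, p = 0.0331, adjusted p = 0.625). The courses of Cd163 in WT and KO are therefore not shown to differ.

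Rhythms with a period of 24 h were sought because REV-ERBs are part of the clock. None of the 34 members passed for a rhythm shared by the genotypes, where 18 genes or 0.119% of all tested genes did, and the lowest adjusted p of a member was 0.292 (limma). Without adjustment 3 members (Ptprc, Kit and C1qa) had p under 0.05, as did 1931 of all tested genes. No member passed for a rhythm that differed between KO and WT either (0.0% of all tested genes), with 1 member, Ccl4, at an unadjusted p of 0.0261 (limma, adjusted p = 0.949) among 745 genes under 0.05.

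Whether the members vary together between libraries was tested with Csf1r, which marks the macrophage lineage, as the reference. Log2 deviations from the genotype mean were correlated over the 24 libraries for the other 33 members tested. The median Pearson r was 0.055 over both genotypes, 0.167 in WT and -0.045 in KO, and 18 of the 33 were above 0 over both. Some members had opposite signs in the genotypes, such as C1qb (r = 0.47 in WT and -0.61 in KO) and Fcer1g (0.26 and -0.64). Others had the same sign, such as Laptm5 (0.66 and 0.35) and Mrc1 (0.16 and 0.67). Differences in r between the genotypes were not tested. Laptm5 had the highest r, 0.572 (Spearman rho 0.557, permutation p = 0.00352 for r and 0.00566 for rho, adjusted over 33 members 0.116 and 0.187), and r was 0.516 without the 2 libraries farthest from the median of Csf1r, WT at 40 and 56 h. Csf2rb followed with r = 0.506 (rho 0.423, adjusted permutation p = 0.183 and 0.349) and Spi1 with r = 0.413 (rho 0.437, adjusted permutation p = 0.479 and 0.349). None of the 33 passed after adjustment. Csf1r itself varied little, with a coefficient of variation of 6.94% in WT and 4.66% in KO.

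Other macrophage genes, which are not members, were compared in the same fit. Of 43 tested, 11 were higher and 4 lower in KO, with a median log2 difference of 0.07. Over all tested genes 11.5% were higher and 14.7% lower, which applies to the lists below as well. F13a1, the coagulation factor XIII A chain of tissue macrophages, rose from 83.6 ± 7.53 in WT to 99.1 ± 6.67 RPKM in KO (log2 difference 0.25 ± 0.05, limma adjusted p = 4.51e-04). Pf4, a chemokine of platelets and of embryonic macrophages, rose from 43.9 ± 9.43 to 61.3 ± 10.9 RPKM (0.49 ± 0.10, limma adjusted p = 0.00124), and both were higher in KO at all 12 hours. The folate receptor gene Folr2 (0.45), the sialic acid receptor gene Siglec1 (0.57), Ms4a6d (0.21), Cd84 (0.18), Fcgr2b (0.21), Csf2rb2 (0.23), the chemokine receptor gene Ccr1 (0.32) and the oxidase subunit gene Cyba (0.15) were also among those higher. Sirpa (-0.06), Mertk (-0.15) and Csf2ra (-0.22) were among those lower, and the abundant lysosomal protease genes Lgmn and Ctsz did not pass (limma adjusted p = 0.529 and 0.0786). With hours, 7 of the 43 rose and 10 fell, where 4.85% and 6.04% of all tested genes did.

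Pan-leukocyte and signalling genes outside the members showed little. Of 17 tested, 2 were higher in KO (Ptpn6 0.16 and Plek 0.19) and 1 lower (Arhgdib -0.19), where 11.5% and 14.7% of all tested genes were. The median log2 difference was 0.05, and the summed level of the list was 106 to 122 RPKM in WT and 102 to 114 RPKM in KO. Among genes for factors that act on leukocytes, none of 9 tested was higher in KO and 2 were lower: the fractalkine gene Cx3cl1, at 34.7 ± 4.01 in WT and 26.5 ± 4.07 RPKM in KO (log2 difference -0.39 ± 0.08, limma adjusted p = 4.84e-04), and Cxcl12, at 17.7 ± 1.93 and 13.2 ± 2.16 RPKM (-0.43 ± 0.08, limma adjusted p = 2.43e-04). Cx3cr1, the receptor gene for fractalkine, did not pass. The CSF1R ligand gene Csf1 was at 18.7 ± 1.16 in WT and 17.8 ± 1.07 RPKM in KO (limma adjusted p = 0.177), and Il34 at 0.943 ± 0.181 and 0.890 ± 0.169 RPKM (limma adjusted p = 0.630).

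Of 4 genes that are known or proposed targets of REV-ERBs in macrophages, none passed between KO and WT. The log2 differences (± SE) were 0.03 ± 0.06 for Cx3cr1 and 0.22 ± 0.17 for the matrix protease gene Mmp9. For the chemokine gene Ccl2 the difference was 0.03 ± 0.08 and for the cytokine gene Il6 -0.05 ± 0.13. The limma adjusted p of the 4 genes ran from 0.367 to 0.811. How much of these transcripts came from macrophages cannot be read from bulk RNA.

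Markers of other cell types moved with the genotype too. Some endothelium also expresses Mrc1, and of 12 endothelial genes 5 were higher in KO (Pecam1, Erg, Emcn, Tie1 and Esam) and none lower. With hours, 5 of the 12 fell and none rose, where 6.04% and 4.85% of all tested genes did. The median slope of the 12 was -0.26 log2 units per 24 h. The summed level of the 12 genes ranged from 10.04 to 29.6 RPKM in WT and from 16.8 to 29.6 RPKM in KO, and the liver sinusoid gene Stab2 had a mean under 0.1 RPKM. Of 12 fibroblast and smooth muscle genes, 7 were higher and 2 lower in KO, with sums of 3125 to 3695 RPKM in WT and 3386 to 4298 RPKM in KO. The part of these cell types in the differences of the leukocyte genes was not tested.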

How the data were processed

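PolyA-selected RNA of 24 libraries was sequenced with 101-bp paired-end reads. The submitters' processing notes name bcl2fastq, Trimmomatic 0.36, STAR 2.5.4b, SAMtools, HOMER and the build GRCm38 (mm10). The authors kept alignments with a mapping quality of at least 10 and deposited RPKM values of the reads on exons, relative to the library total. The kit does not mark strand, so genes that overlap on either strand can share reads. Among the members, Mir6983 lies within Csf1r, Mir511 within Mrc1 and Mir7007 within Cpa3, each on the strand of its host gene. Whole and halved fragments, recovered from RPKM, exonic length and library total, were used only to describe depth and counting error.

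The members and gene lists were chosen with earlier results of these data known. All members are named or counted, with ranges for those called or highest in their role. Other lists are named by the genes called between KO and WT and up to 4 with the highest mean. Genes with a mean above 0.5 RPM (RPKM times exonic length in kilobases) in WT or KO were tested, 15112 of 33079, on log2(RPKM + 0.1) by limma 3.58.1, run in R 4.3.3 with eBayes trend, and were called at an adjusted p under 0.05. Klra18 and Ccl4 passed this filter through KO only. A fold change on this scale understates that of low genes. Models held the genotype, the genotype with hours, their interaction, or cosine and sine terms of 24 h. Correlations used 100000 permutations in Python 3.11.15 with scipy 1.17.1. The limma models were tested on simulated data. Alternatives covered the pseudocount, filter, scaling, covariates, hour as block, variance prior and each library left out. A few genes of the other lists are counted in the totals but are not reported here by name.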

Additional observations from a re-analysis of the deposited data

How the results depend on the processing

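Counts of called members kept within 1.5 times of 15 higher and 1 lower in KO, and of 8 rising and 2 falling with hours, under pseudocounts of 1 and 0.01, a filter at 1 RPKM, no filter, quantile normalization, scaling to exon fragments and eBayes without trend. Leaving out single libraries, the members lower in KO ranged from 0 to 1 and those falling with hours from 2 to 4. With the hour as a replicate block, 18 members were higher and 1 lower in KO, with Fcgr1 (log2 difference 0.24), Cd68 (0.18) and C1qc (0.15) added. The block was fitted as an alternative. Deviations of WT and KO libraries of the same hour correlated with a mean r of 0.163, against -0.015 for different hours. They correlated over 0.1 in 7 of 12 pairs, and 5 of 12 WT libraries correlated best with the KO library of their hour. Libraries of the same hour thus tended to deviate together, which the main fit does not model. Counts of 18 and 1 were also found with hours and 24 h terms as covariates. Lyz2 (KO minus WT) did not pass with no filter or with quantile normalization, where its log2 difference was 0.24. The slopes of Cd163 and Klra18 did not pass with a pseudocount of 1 (0.15 and 0.21 log2 units per 24 h) or with no filter, nor that of Klra18 with a filter at 1 RPKM or without the trend. The causes were not tested. No member changed sign among those called. Depth limits Klra18, Ccr2, Ccl3, Ccl4, Mcpt4 and Cpa3, each with a mean under 20 fragments per WT library, and 1 library per hour limits every statement about a single hour.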

Other observations

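Of 3 genes of MHC class II antigen presentation, 2 fell with the hours, where 6.04% of all tested genes did. Cd74, the invariant chain of MHC class II, fell by 0.76 log2 units per 24 h (limma adjusted p = 8.53e-08). Its mean over all hours was 3.18 ± 1.32 in WT and 3.45 ± 1.25 RPKM in KO. H2-Aa fell by 0.95 (limma adjusted p = 5.85e-05), at a mean over all hours of 0.420 ± 0.292 and 0.470 ± 0.254 RPKM. H2-Ab1, the partner chain of H2-Aa, had a slope of -0.25 that did not pass (limma adjusted p = 0.122). The scavenger receptor gene Msr1 fell by 0.26 (limma adjusted p = 5.70e-08), and Siglec1 rose by 0.50 (limma adjusted p = 2.77e-06). These genes were picked after their values were seen.

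Among platelet and erythroid genes, Ppbp was higher in KO (5.37 ± 1.61 RPKM against 3.48 ± 1.29 RPKM in WT, log2 difference 0.63 ± 0.19, limma adjusted p = 0.0159), while Gp9, Klf1 and Gata1 had means under 0.1 RPKM. Of 5 neutrophil genes tested, Ltf (0.56 ± 0.18, limma adjusted p = 0.0207) and Cxcr2 (0.60 ± 0.22, limma adjusted p = 0.0499) were higher in KO, and 6 of the 12 listed neutrophil genes (Mpo, Elane, Ctsg, Prtn3, Ngp and Ly6g) had means under 0.1 RPKM. Of 6 tested mast cell and basophil genes, 3 were higher in KO: Srgn (0.41 ± 0.08), Gata2 (0.59 ± 0.18) and Rab27b (0.28 ± 0.06), which other cells express as well. Vsig4, a complement receptor gene of resident macrophages, was under the filter at 0.0740 ± 0.0412 in WT and 0.275 ± 0.134 RPKM in KO, higher in KO at all 12 hours, and was picked after its values were seen. Of 9 pluripotency genes, 4 were tested and none passed, with Klf4 at 12.3 ± 0.961 and 12.5 ± 0.936 RPKM.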
